A study of Mus musculus with 6 samples.

Results

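Complement and clotting proteins circulate in blood plasma and are made largely by hepatocytes, the main cell type of the liver. The genes described here are 37 such genes, 17 of the complement system and 20 of coagulation and fibrinolysis, chosen by symbol and matched by Ensembl identifier. The count tables hold 36 of them, all 36 were abundant enough to be tested, and they stand among 37991 genes counted and 17558 tested. The remaining member, Klkb1 (plasma prekallikrein), has no level or test here and enters the promoter search alone.

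RNA was sequenced from 3 groups of mouse tissue with 2 libraries each. The tumours were taken from livers of mice with the genotype TgAlbCreKap1lox. In these mice the albumin promoter drives Cre recombinase in hepatocytes. Cre can inactivate Trim28, the gene of the co-repressor KAP1, while cells in which Cre was never active keep the gene. KAP1-deleted livers have that same genotype, and by the codes in the sample titles each tumour and the KAP1-deleted liver with the same number come from a single mouse. Control livers came from 2 further mice, which are labelled TgAlbCre, the same Cre transgene with no lox allele named. Every mouse, controls included, ate a high-fat diet for 27 weeks and was killed at 35 weeks of age. All libraries carry 1 batch label. Nothing in the labels says how the tumours were dissected.

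Complement is a chain of proteases and binding proteins that marks foreign surfaces. Recognition proteins such as mannose-binding lectins start it, C3 and C5 carry it forward, and C5b to C9 build a pore called the membrane attack complex. Coagulation is a second protease chain, which ends when thrombin turns fibrinogen into fibrin, and antithrombin, protein C and protein S hold it back. Plasmin, made from plasminogen, dissolves fibrin.

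Genes held 55316370 and 43173982 counts in tumours 1 and 2, 50977644 and 53744834 in the KAP1-deleted livers 1 and 2, and 39723997 and 62178752 in control livers 1 and 2. Levels are CPM (counts scaled to a common library size) after TMM scaling, which corrects library totals for genes that differ strongly, and values of a group stand in the order replicate 1, replicate 2. A ± after a mean is an SD (n = 2), and a ± after a log2 fold change is its SE. Trim28 had 5.22 and 4.59 CPM in tumours, 5.06 and 6.02 CPM in the KAP1-deleted livers, and 32.5 and 35.9 CPM in control livers, so the labels and the target gene go together in all 6 libraries. Reads outside genes made up 35.0% and 31.3% of counted reads in tumours, 22.3% and 18.1% in the KAP1-deleted livers, and 25.2% and 18.04% in control livers, so the share was highest in tumours. Reads ambiguous between genes were 1.73% and 1.80% in tumours and 2.43% to 2.87% in livers, and the part of either share in the tumour differences was not tested. All 10 hepatocyte markers were detected in every group, and their summed level was 36894 and 54434 CPM in tumours, 76321 and 89109 CPM in the KAP1-deleted livers, and 83144 and 95727 CPM in control livers. Of these 10 markers, 1 was called higher and 4 lower in tumours against either liver group. Summed levels of 8 macrophage markers were 283 and 399 CPM in tumours, 630.3 and 644 CPM in the KAP1-deleted livers, and 609 and 575 CPM in control livers. In bulk tissue, fewer cells of a type and less RNA per cell cannot be told apart, and the part of these marker differences in the results below was not tested.

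In the main edgeR fit most of the 36 complement and clotting genes were not called in either tumour comparison, and more were called lower than higher. Against KAP1-deleted livers, more were called higher than lower with library totals alone and when KAP1-deleted liver 2 was left out. Most were called there with DESeq2, with no filter on low counts, and with a block by mouse or by replicate number. Over all genes those fits called 7.14%, 5.74%, 8.95% and 6.81% higher and 9.03%, 8.28%, 13.2% and 9.89% lower, in that order. In the main fit, terminal complement genes C8a and C9 and the clotting factor gene F11 were called lower against both liver groups. So were C4b, Mbl1, Masp2, F7 and Serpinf2. The fibrinogen genes were called lower against control livers, whereas F5 was called higher in tumours against both liver groups. The F7 call against control livers was the only call of the 36 genes kept whichever library was left out. No member was called in KAP1-deleted against control livers. A gene was called when edgeR's quasi-likelihood test gave it an adjusted p under 0.05, with Benjamini-Hochberg adjustment over the whole set of tested genes.

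For KAP1-deleted against control livers, 0 of 36 genes were called higher, where 0.239% of all genes tested were, and 0 were called lower, where 0.0968% were. Unadjusted p was under 0.05 for 2 of the 36, C6 and F11. DESeq2 called 1 lower, C6, and limma-voom called 0. With no filter on low counts 3 were called lower, C6, C8b and F11. Over all genes these 3 fits called 0.444%, 0.0626% and 0.797% lower. The median log2 fold change of the 36 genes was -0.04, against 0.00 for all genes.

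For tumours against KAP1-deleted livers, 2 of 36 genes were called higher (background 4.8% of all genes tested) and 9 were called lower (background 6.64%). The median log2 fold change was -0.66 for the 36 genes and -0.03 for all genes, and 31 of the 36 were below 0. Complement genes gave 1 higher and 6 lower of 17, and coagulation genes gave 1 higher and 3 lower of 19. With the mouse as a block, a fit with 1 residual degree of freedom, 3 were called higher and 17 lower, where 8.95% and 13.2% of all genes tested were. They include C8b, C8g, F2, F9, F10, F12, Fga, Fgg, Serpinc1 and Pros1, which were not called without it. Against control livers, tumours had 1 gene called higher (background 6.15%) and 14 called lower (background 7.76%). That median was -0.59 for the 36 genes and -0.02 for all genes, with 29 of 36 below 0. Complement genes gave 0 higher and 6 lower, and coagulation genes 1 higher and 8 lower. Both tumour comparisons use the same tumour libraries, so their counts are not separate evidence.

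These levels depend on how libraries are scaled. The 36 genes together took 1.91% and 1.93% of all gene counts in tumours, 1.91% and 1.92% in the KAP1-deleted livers, and 1.83% and 2.11% in control livers, so by raw share the groups overlap. After TMM scaling their sum was 14553 and 15858 CPM in tumours, 22128 and 21819 CPM in the KAP1-deleted livers, and 21030 and 22261 CPM in control livers. TMM factors were 1.31 and 1.22 in tumours, 0.864 and 0.878 in the KAP1-deleted livers, and 0.872 and 0.948 in control livers. With library totals alone, the median of all genes shifted by 0.54 on the log2 scale for tumours against KAP1-deleted livers and by 0.47 for tumours against control livers. The share of higher genes among all called genes was then 89.2% in place of 42.0% for tumours against KAP1-deleted livers, and 86.4% in place of 44.2% against control livers. Under that scaling 4 of the 36 genes were called higher (C6, F5, F13b and Pros1) and 3 lower (C8a, C9 and F11) in tumours against KAP1-deleted livers, with a median of -0.13, where 24.6% of all genes tested were called higher and 2.96% lower. Against control livers the same scaling gave 3 higher (C2, F5 and Pros1) and 9 lower, again with a median of -0.13, where 22.6% of all genes were called higher and 3.57% lower.

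**Figure D1:**
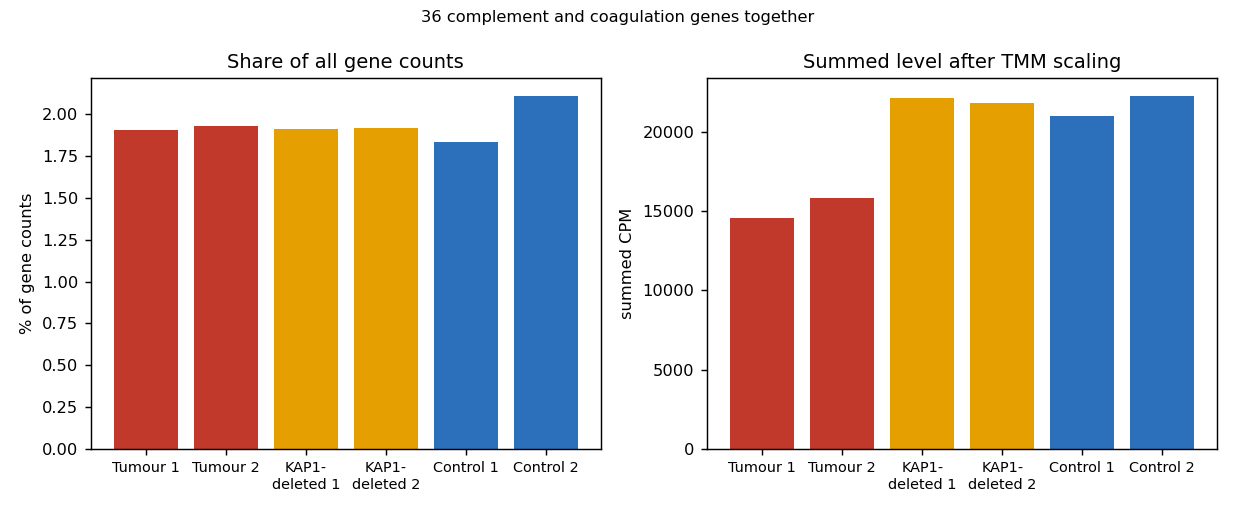
Combined level of the 36 complement and coagulation genes in each of the 6 libraries, as a percentage of all gene counts (left) and as summed CPM after TMM scaling (right). Percentages of tumours lie among those of livers, while the summed CPM of both tumours lies below all 4 livers.

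**Figure D2:**
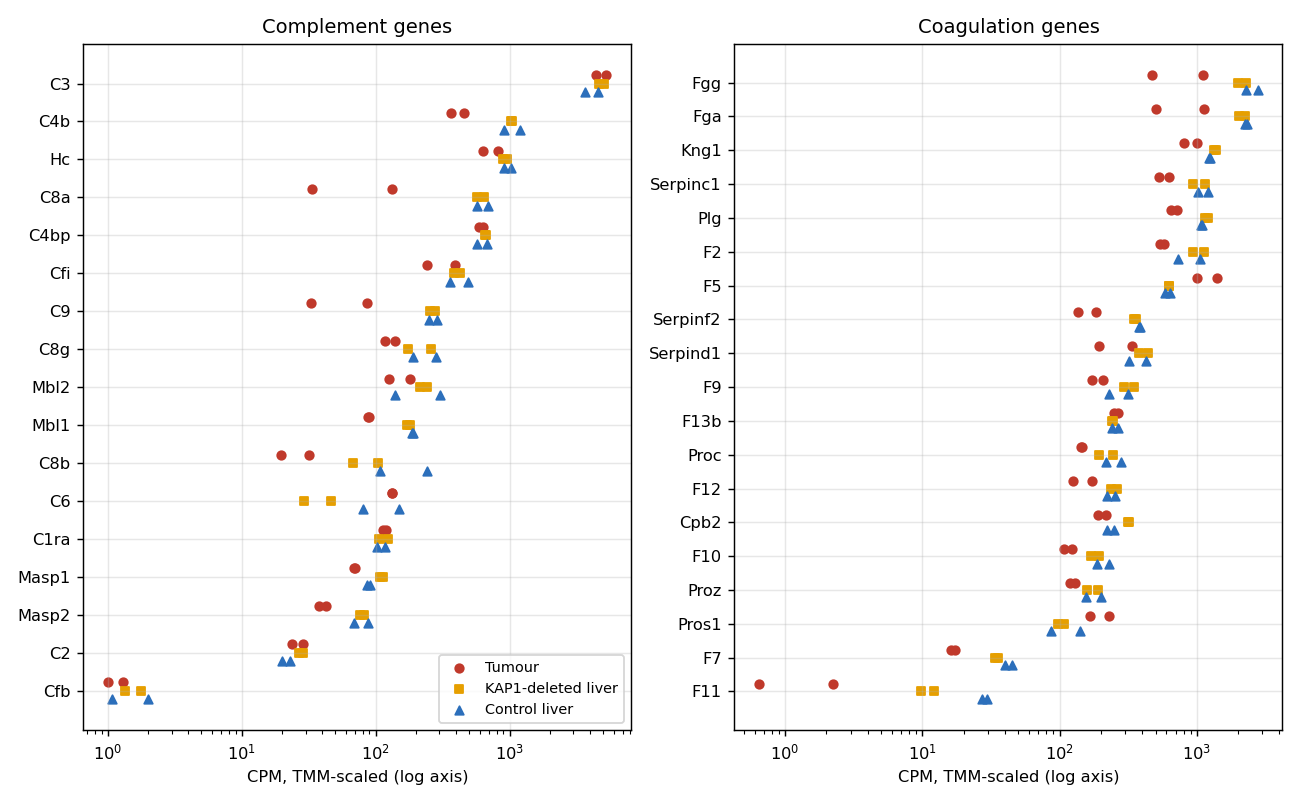
CPM after TMM scaling on a log axis for each complement gene (left) and coagulation gene (right); every point is a library of tumour, KAP1-deleted liver or control liver. C8a, C9, C8b and F11 show tumours far left of both liver groups, C6 shows KAP1-deleted livers to the left, and F5 shows tumours to the right.

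Promoter sequences are shown for C8a, C8b, C9 and F11, called lower in tumours against control livers. C3 and F9, not called in that comparison, stand beside them. F9 still had both tumours below all livers, and some alternatives called it lower against KAP1-deleted livers. The sequences are the 150 bases before the RefSeq start on build GRCm38.p6, 5′ to 3′ on the strand of the gene. Capitals mark matches to motifs of liver transcription factors.
C8a, chr4:104876399-104876548, minus strand: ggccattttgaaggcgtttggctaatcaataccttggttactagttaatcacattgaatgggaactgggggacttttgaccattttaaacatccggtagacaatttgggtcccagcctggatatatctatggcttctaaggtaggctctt
C8b, chr4:104766167-104766316, plus strand: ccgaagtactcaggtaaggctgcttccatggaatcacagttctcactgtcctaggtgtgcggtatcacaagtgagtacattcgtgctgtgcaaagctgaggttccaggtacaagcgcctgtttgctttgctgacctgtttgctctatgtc
C9, chr15:6445196-6445345, plus strand: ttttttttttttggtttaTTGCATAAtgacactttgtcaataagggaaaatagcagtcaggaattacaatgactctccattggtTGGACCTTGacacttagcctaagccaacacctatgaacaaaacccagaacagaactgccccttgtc
F11, chr8:45262032-45262181, minus strand: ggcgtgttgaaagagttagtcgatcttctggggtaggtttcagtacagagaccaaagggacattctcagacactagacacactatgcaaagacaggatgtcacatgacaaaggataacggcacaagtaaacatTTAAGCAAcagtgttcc
C3, chr17:57228137-57228286, minus strand: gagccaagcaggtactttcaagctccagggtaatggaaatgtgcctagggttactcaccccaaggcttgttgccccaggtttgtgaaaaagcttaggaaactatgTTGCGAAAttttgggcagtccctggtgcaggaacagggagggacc
F9, chrX:59999314-59999463, plus strand: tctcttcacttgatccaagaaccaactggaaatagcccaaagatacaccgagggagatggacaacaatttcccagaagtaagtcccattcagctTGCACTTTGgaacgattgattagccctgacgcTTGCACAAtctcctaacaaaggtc
The C/EBP motif TTGCNNAA is capitalised from -132 in C9, -17 in F11, -45 in C3 and -24 in F9, counting the base before the start as -1. The HNF4 motif CAAAGTCCA, with at most 1 mismatch, is capitalised from -66 in C9 and -56 in F9, and the matches shown do not overlap. No motif searched matched in these letters of C8a or C8b.

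Both strands of RefSeq promoter windows of 300 bases, 250 before and 50 after the start, were searched, and 29 of the 37 genes have such a window. The C/EBP motif was found in 9 of the 29 genes, Klkb1 among them, against 12.2% of 27025 genes with a window. HNF4 matches were present in 5 of 29 (17.2%), against 9.64% of genes. HNF1, searched as its half-site GTTAAT, 1 free base and the reverse complement of that half-site with at most 2 mismatches, was found in 5 of 29 (17.2%), against 1.58% of genes. Among the 12 genes called lower in tumours against control livers, 4 held the C/EBP motif, 1 the HNF4 motif and 1 the HNF1 motif. The 15 genes not called held these motifs in 4, 4 and 4 cases. Such matches describe the letters of a window and say nothing of which factor bound there.

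Transcription factors of the liver were read from a list of 13. Tumours had 0 called higher and 3 called lower against KAP1-deleted livers (Cebpa, Cebpb and Onecut1). Against control livers 0 were called higher and 6 lower, among them Cebpa, Cebpb, Onecut1, Nr1h4 and Stat3. Over all genes tested, 6.64% were called lower against KAP1-deleted livers and 7.76% against control livers. Counts of Onecut1 are uncertain, since Gm20649 on the same strand covers 52.8% of its exon bases. Its means were also low, at 0.063 CPM per kilobase of exon in tumours, 0.382 in the KAP1-deleted livers and 0.434 in control livers. Cebpa, the gene of C/EBP alpha, had 44.9 and 50.1 CPM in tumours, 138 and 166 CPM in the KAP1-deleted livers, and 106 and 157 CPM in control livers. It fell by 1.68 ± 0.23 (SE) on the log2 scale in tumours against KAP1-deleted livers (edgeR, adjusted p = 0.00589) and by 1.47 ± 0.23 against control livers (adjusted p = 0.00744), and both calls were lost without tumour 1 (adjusted p = 0.0529 and 0.0604). Cebpb lost both calls without tumour 1 (0.093 and 0.056), and that against KAP1-deleted livers also without KAP1-deleted liver 2 (0.106) and with library totals alone (0.0521). The Onecut1 call against KAP1-deleted livers was lost without either control liver, without KAP1-deleted liver 1 or 2 and without tumour 1. It was also lost with DESeq2 size factors (0.0504) and with only the 4 libraries compared (0.0571). Alternatives for the Onecut1 call against control livers are not reported here. Nr1h4 lost its call without tumour 1 or 2 (0.0755 and 0.111) and with library totals alone (0.216). Stat3 kept its call in 1 of the 6 fits that left out a library, the one without control liver 1, and lost it with library totals alone (0.366) and with only the 4 libraries compared (0.0678). Hnf4a, a nuclear receptor gene of hepatocytes, had 188 and 204 CPM in tumours, 300.3 and 406 CPM in the KAP1-deleted livers, and 277 and 440.3 CPM in control livers, and was not called against either (adjusted p = 0.0863 and 0.0748).

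Recognition proteins and proteases of the lectin pathway were lower in tumours in part. Mbl1, which encodes mannose-binding lectin A, had 87.2 and 89.9 CPM in tumours, 172 and 180.3 CPM in the KAP1-deleted livers, and 189 and 188 CPM in control livers. Both tumours lay below all 4 livers. The fall was 1.99-fold against KAP1-deleted livers (log2 -0.99 ± 0.17, edgeR adjusted p = 0.0121) and 2.13-fold against control livers (log2 -1.09 ± 0.17, adjusted p = 0.00707). The call against KAP1-deleted livers was lost without KAP1-deleted liver 1 or 2 (adjusted p = 0.0562 and 0.0862), without tumour 1 or 2 (0.075 and 0.0554) and with library totals alone (0.0977), and the call against control livers was lost without tumour 1 (0.051). Mbl2, the gene of mannose-binding lectin C, averaged 154 ± 37.9 CPM in tumours, 228 ± 18.3 in the KAP1-deleted livers and 220.0 ± 115 in control livers (SD, n = 2 each), and the tumour range overlapped that of control livers.

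Masp2, the protease that cleaves C4 and C2 when lectins bind, had 42.3 and 37.5 CPM in tumours, 76.6 and 81.7 CPM in the KAP1-deleted livers, and 68.6 and 88.3 CPM in control livers. Tumours were below every liver library. Masp2 fell 1.98-fold against KAP1-deleted livers (log2 -0.99 ± 0.19, edgeR adjusted p = 0.0174) and 1.96-fold against control livers (log2 -0.97 ± 0.19, adjusted p = 0.0153). Calls ended without tumour 1 (0.074 against KAP1-deleted livers, 0.0646 against control livers), without tumour 2 (0.0927 and 0.0902), without KAP1-deleted liver 1 or 2 (0.0546 and 0.0924, against KAP1-deleted livers alone) and with library totals alone (0.149 and 0.115). Its exons share 54.9% of their bases with Tardbp on the opposite strand, so reads of the pair cannot be told apart if the counting ignored strand. Tardbp had 70.1 and 74.4 CPM in tumours, 67 and 58.4 CPM in the KAP1-deleted livers, and 60.2 and 48.8 CPM in control livers.

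Masp1, a related protease that activates Masp2, had 69.9 and 68.9 CPM in tumours, 107 and 113 CPM in the KAP1-deleted livers, and 86.8 and 90.6 CPM in control livers. The 3 groups did not overlap, with KAP1-deleted livers highest and tumours lowest. It fell 1.58-fold in tumours against KAP1-deleted livers (log2 -0.66 ± 0.16, edgeR adjusted p = 0.0373). That call was lost without KAP1-deleted liver 1 or 2 (0.154 and 0.256), without tumour 1 or 2 (0.145 and 0.136) and with library totals alone (0.614). Against control livers Masp1 was not called in tumours (adjusted p = 0.186), nor was it in KAP1-deleted livers (adjusted p = 1).

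Genes of the classical and alternative pathways split by gene. C4b, which encodes complement C4, had 363 and 457 CPM in tumours, 1032 and 1037 CPM in the KAP1-deleted livers, and 908 and 1201 CPM in control livers. Neither tumour reached the lowest liver. C4b fell 2.52-fold against KAP1-deleted livers (log2 -1.33 ± 0.26, edgeR adjusted p = 0.0174) and 2.57-fold against control livers (log2 -1.36 ± 0.26, adjusted p = 0.0134). The first call was lost without KAP1-deleted liver 1 or 2 (0.0654 and 0.0814), without tumour 1 (0.1) and with library totals alone (0.0524), and the second without tumour 1 (0.0824). Only 51.7% of the 31-base words of C4b are unique in the reference transcripts, since its copy C4a holds 48.3% of them, so counts of the pair are uncertain. C4a had 41 and 60.2 CPM in tumours, 158 and 168 CPM in the KAP1-deleted livers, and 136 and 188 CPM in control livers, and fell 3.23-fold (adjusted p = 0.00767) and 3.2-fold (adjusted p = 0.00601), and the call against KAP1-deleted livers was lost without tumour 1 (0.0525).

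C1ra, a protease of the first complement component, averaged 117 ± 4.84 CPM in tumours, 115 ± 11.9 in the KAP1-deleted livers and 109 ± 10.6 in control livers (SD, n = 2 each). It shares 56.9% of its words with C1rb and was not called in any comparison. C2, whose product pairs with C4 fragments in a protease that cleaves C3, had 28.9 and 23.8 CPM in tumours, 26.8 and 28.5 CPM in the KAP1-deleted livers, and 20 and 23 CPM in control livers. C2 was not called (edgeR adjusted p = 0.825 and 0.308 for tumours against KAP1-deleted and control livers). Cfb, the alternative pathway counterpart of C2, had 1.01 and 1.29 CPM in tumours, 1.34 and 1.78 CPM in the KAP1-deleted livers, and 1.07 and 1.99 CPM in control livers. Gm20547, an overlapping gene on the same strand, covers 79.5% of the exon bases of Cfb, and other genes cover 46.9% of those of C2. Reads ambiguous between genes were set aside in an entry of their own and counted for no gene. Reads within such overlaps would then be missing, so the levels of Cfb and C2 can be too low by an unknown amount.

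C3, the central protein of complement, did not differ detectably between the groups. It had 5290.0 and 4413 CPM in tumours, 5059.8 and 4659 CPM in the KAP1-deleted livers, and 3639.9 and 4555 CPM in control livers. The ranges overlapped, and the log2 fold change was 0.00 ± 0.29 in tumours against KAP1-deleted livers and 0.24 ± 0.29 against control livers (edgeR adjusted p = 0.996 and 0.618). Hc, the mouse gene of complement C5, had 637 and 821 CPM in tumours, 956 and 896 CPM in the KAP1-deleted livers, and 1028 and 911 CPM in control livers. Tumours were below all 4 livers, but Hc was not called against either group (adjusted p = 0.377 and 0.294).

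Terminal complement genes differed among themselves. C8a encodes the alpha chain of C8, which inserts into the target membrane. It had 33.6 and 133 CPM in tumours, 644 and 575 CPM in the KAP1-deleted livers, and 691 and 569.8 CPM in control livers. Tumour 2 was 3.97-fold above tumour 1, yet both were far below every liver. C8a fell 7.31-fold against KAP1-deleted livers (log2 -2.87 ± 0.61, edgeR adjusted p = 0.0325) and 7.57-fold against control livers (log2 -2.92 ± 0.61, adjusted p = 0.0279). With tumour 1 left out the log2 fold changes were -2.20 and -2.25, and with tumour 2 left out -4.19 and -4.24. Calls were lost without control liver 1 or 2 (0.133 and 0.134 against KAP1-deleted livers, 0.163 and 0.193 against control livers), without KAP1-deleted liver 1 or 2 (0.183 and 0.211, then 0.104 and 0.103), and when only the 4 libraries compared were fitted (0.122 and 0.0893). With the mouse as a block, C8a against KAP1-deleted livers was not called (adjusted p = 0.0875).

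C8b, the gene of the C8 beta chain, had 19.8 and 32 CPM in tumours, 104 and 68.2 CPM in the KAP1-deleted livers, and 243 and 108 CPM in control livers. The groups did not overlap, and control liver 1 stood well above control liver 2. C8b fell 6.76-fold in tumours against control livers (log2 -2.76 ± 0.46, edgeR adjusted p = 0.012). That call was lost without tumour 1 (0.0588), and without control liver 1 the log2 fold change was -2.07. Against KAP1-deleted livers the log2 fold change was -1.73 ± 0.44 and missed the threshold (adjusted p = 0.0513), and it was called by DESeq2 (0.00106), by limma-voom (0.035) and with the mouse as a block (0.0194). On chromosome 4, C8b and C8a lie 11131 bases apart with their ends facing. Among the 5 tested genes on each side of C8a, 0 were called in either direction against KAP1-deleted livers, and 1 higher and 1 lower against control livers, the lower one being C8b. C8g, the gamma chain gene on chromosome 2, averaged 129 ± 16.4 CPM in tumours, 216 ± 57.8 in the KAP1-deleted livers and 236 ± 66.3 in control livers, and was not called (adjusted p = 0.119 and 0.0741).

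C9, which forms most of the pore, had 33 and 85.7 CPM in tumours, 257 and 277 CPM in the KAP1-deleted livers, and 288 and 251 CPM in control livers. As for C8a, tumour 1 was the lower tumour and both lay below every liver. C9 fell 4.5-fold against KAP1-deleted livers (log2 -2.17 ± 0.41, edgeR adjusted p = 0.018) and 4.54-fold against control livers (log2 -2.18 ± 0.41, adjusted p = 0.015). Without tumour 2 the log2 fold changes were -3.03 and -3.04. The call against KAP1-deleted livers was lost without control liver 1 or 2 (0.0702 and 0.0713), without KAP1-deleted liver 1 or 2 (0.0664 and 0.0951) and with only the 4 libraries compared (0.0647), and the call against control livers was lost without control liver 1 or 2 (0.0982 and 0.114).

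C6, which joins C5b early in pore assembly, had another pattern. It had 132 and 133 CPM in tumours, 29 and 46.2 CPM in the KAP1-deleted livers, and 149.7 and 81 CPM in control livers. Tumours lay within the range of control livers, and KAP1-deleted livers lay below both groups. C6 was 3.52-fold higher in tumours than in KAP1-deleted livers (log2 1.82 ± 0.33, edgeR adjusted p = 0.0147) and not called against control livers (log2 0.20 ± 0.32, adjusted p = 0.723). The first call was lost without KAP1-deleted liver 1 (0.0516), tumour 1 (0.0685) or tumour 2 (0.0573). In KAP1-deleted against control livers the log2 fold change was -1.62 ± 0.33 with an unadjusted p of 0.00121 and an adjusted p of 0.146, which passed only without control liver 2 (0.0469), in DESeq2 and with no filter on low counts. C7, a partner gene that is not among the 36, had 0.193 and 0.705 CPM in tumours, 2.43 and 2.29 CPM in the KAP1-deleted livers, and 1.93 and 1.88 CPM in control livers, and was called lower in tumours against both (adjusted p = 0.0246 and 0.0332).

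Neither soluble regulator of complement was called. C4bp, whose product binds C4b protein and speeds its decay, averaged 613 ± 24.1 CPM in tumours, 662 ± 12.5 in the KAP1-deleted livers and 623 ± 73.9 in control livers. Cfi, the protease that inactivates C3b and C4b, had 241 and 389 CPM in tumours, 388 and 426 CPM in the KAP1-deleted livers, and 359 and 491 CPM in control livers. For tumours against KAP1-deleted and control livers, adjusted p was 0.77 and 0.959 for C4bp and 0.424 and 0.351 for Cfi in edgeR.

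**Figure D3:**
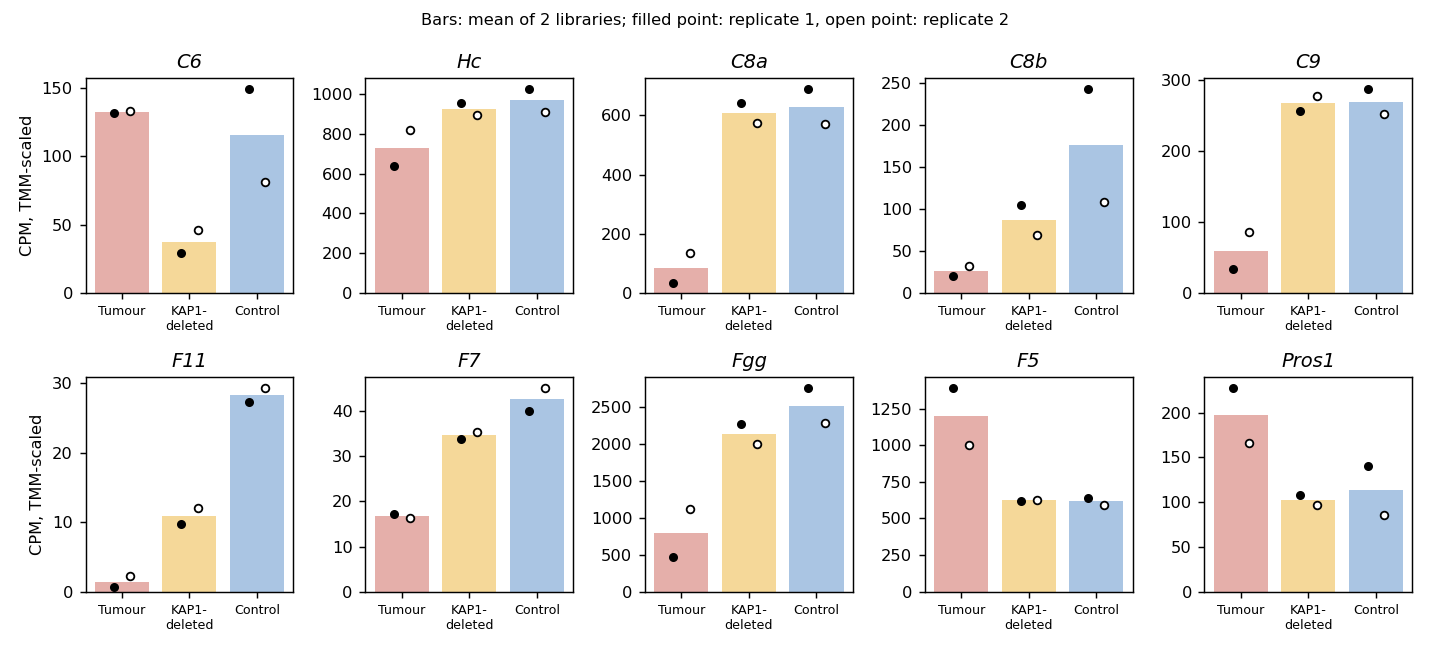
CPM after TMM scaling in tumours, KAP1-deleted livers and control livers for 5 complement genes (top) and 5 coagulation genes (bottom); bars are means of 2 libraries, the filled point is replicate 1 and the open point replicate 2. Hc, C8a, C8b, C9, F11, F7 and Fgg have both tumours below all livers, C6 is lowest in the KAP1-deleted livers, and F5 and Pros1 have both tumours above all livers.

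Among clotting factor genes, F11 and F7 were called lower in tumours against both liver groups, F10 against control livers, and F5 was called higher against both. F11 encodes factor XI, a protease that thrombin activates and that in turn activates factor IX. It had 0.649 and 2.25 CPM in tumours, 9.7 and 12.1 CPM in the KAP1-deleted livers, and 27.3 and 29.4 CPM in control livers. The 3 groups did not overlap, and tumour counts were 47 and 118. F11 fell 7.66-fold in tumours against KAP1-deleted livers (log2 -2.94 ± 0.51, edgeR adjusted p = 0.0179) and to a fraction of 0.0501 of the level in control livers (log2 -4.32 ± 0.54, adjusted p = 0.00514). Without tumour 1 the log2 fold changes were -2.28 and -3.66, and without tumour 2 they were -4.07 and -5.45. The call against KAP1-deleted livers was lost without control liver 1 or 2 (0.0813 and 0.0816), without KAP1-deleted liver 1 or 2 (0.0987 and 0.152) and with only the 4 libraries compared (0.0562), and that against control livers without control liver 2 (0.0698). KAP1-deleted livers were at log2 -1.38 ± 0.47 against control livers, with an unadjusted p of 0.0224 and an adjusted p of 0.686. That difference was called only in the alternative with no filter on low counts.

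F7 encodes factor VII, which starts clotting together with tissue factor. It had 17.2 and 16.3 CPM in tumours, 33.9 and 35.4 CPM in the KAP1-deleted livers, and 40 and 45.1 CPM in control livers. Replicates lay close together and the 3 groups did not overlap. F7 fell 2.07-fold against KAP1-deleted livers (log2 -1.05 ± 0.16, edgeR adjusted p = 0.00855) and 2.54-fold against control livers (log2 -1.35 ± 0.16, adjusted p = 0.0027). It was the only one of the 36 genes whose call, against control livers, held in all 6 fits that left out a library, with a largest adjusted p of 0.0214. Against KAP1-deleted livers it was lost without KAP1-deleted liver 2 (0.0518), without tumour 1 (0.0506) and with library totals alone (0.0782).

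F10 starts 1499 bases beyond the end of F7 on chromosome 8, and Proz follows 4238 bases after F10. F10, the gene of factor X, which makes thrombin, had 108 and 123 CPM in tumours, 169 and 193 CPM in the KAP1-deleted livers, and 186 and 229 CPM in control livers. Tumours lay below all livers. Its fall of 1.8-fold against control livers was called (log2 -0.85 ± 0.20, edgeR adjusted p = 0.0299) and that of 1.57-fold against KAP1-deleted livers was not (adjusted p = 0.0721). The call was lost without control liver 2 (0.0937), KAP1-deleted liver 1 (0.05), tumour 1 (0.152) or tumour 2 (0.0881), with only the 4 libraries compared (0.0507) and with library totals alone (0.212). Proz, protein Z, a cofactor in the inhibition of factor X, averaged 124 ± 7.47 CPM in tumours, 173 ± 22.6 in the KAP1-deleted livers and 179 ± 32.3 in control livers and was not called (adjusted p = 0.171 and 0.135).

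F2 (prothrombin), F9 (factor IX) and F12 (factor XII) were not called in tumours, although both tumours lay below all livers for each. F2 averaged 557 ± 29.2 CPM in tumours, 1032 ± 129 in the KAP1-deleted livers and 893 ± 225 in control livers (edgeR adjusted p = 0.0662 and 0.125 for the 2 tumour comparisons). F9 averaged 190.5 ± 24.6 CPM in tumours, 323 ± 39.4 in the KAP1-deleted livers and 272 ± 59.2 in control livers (adjusted p = 0.0729 and 0.181). F12, which starts the contact pathway, averaged 149.7 ± 33.3 CPM in tumours, 250.4 ± 17 in the KAP1-deleted livers and 237 ± 24.8 in control livers (adjusted p = 0.0675 and 0.0843). Kng1, the kininogen that carries factor XI in plasma, averaged 905 ± 131 CPM in tumours, 1362 ± 33.4 in the KAP1-deleted livers and 1245 ± 12.5 in control livers (adjusted p = 0.147 and 0.239), and shares 26.5% of its words with Kng2. F13b, the carrier subunit of the enzyme that cross-links fibrin, averaged 258 ± 12.4 CPM in tumours, 243 ± 3.28 in the KAP1-deleted livers and 253 ± 16.7 in control livers, with ranges of tumours and control livers that overlap.

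F5 encodes factor V, the cofactor of factor X. It had 1393 and 1000.4 CPM in tumours, 622 and 623 CPM in the KAP1-deleted livers, and 642 and 589.6 CPM in control livers. Both tumours lay above all 4 livers. F5 rose 1.92-fold against KAP1-deleted livers (log2 0.94 ± 0.25, edgeR adjusted p = 0.0482) and 1.94-fold against control livers (log2 0.96 ± 0.25, adjusted p = 0.0408). The first call was lost without KAP1-deleted liver 1 or 2 (0.231 and 0.281) and without tumour 1 or 2 (0.194 and 0.0532). The second was lost without control liver 1 or 2 (0.0659 and 0.129), KAP1-deleted liver 1 or 2 (0.0864 and 0.0858) or tumour 1 (0.168), and with only the 4 libraries compared.

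**Figure D4:**
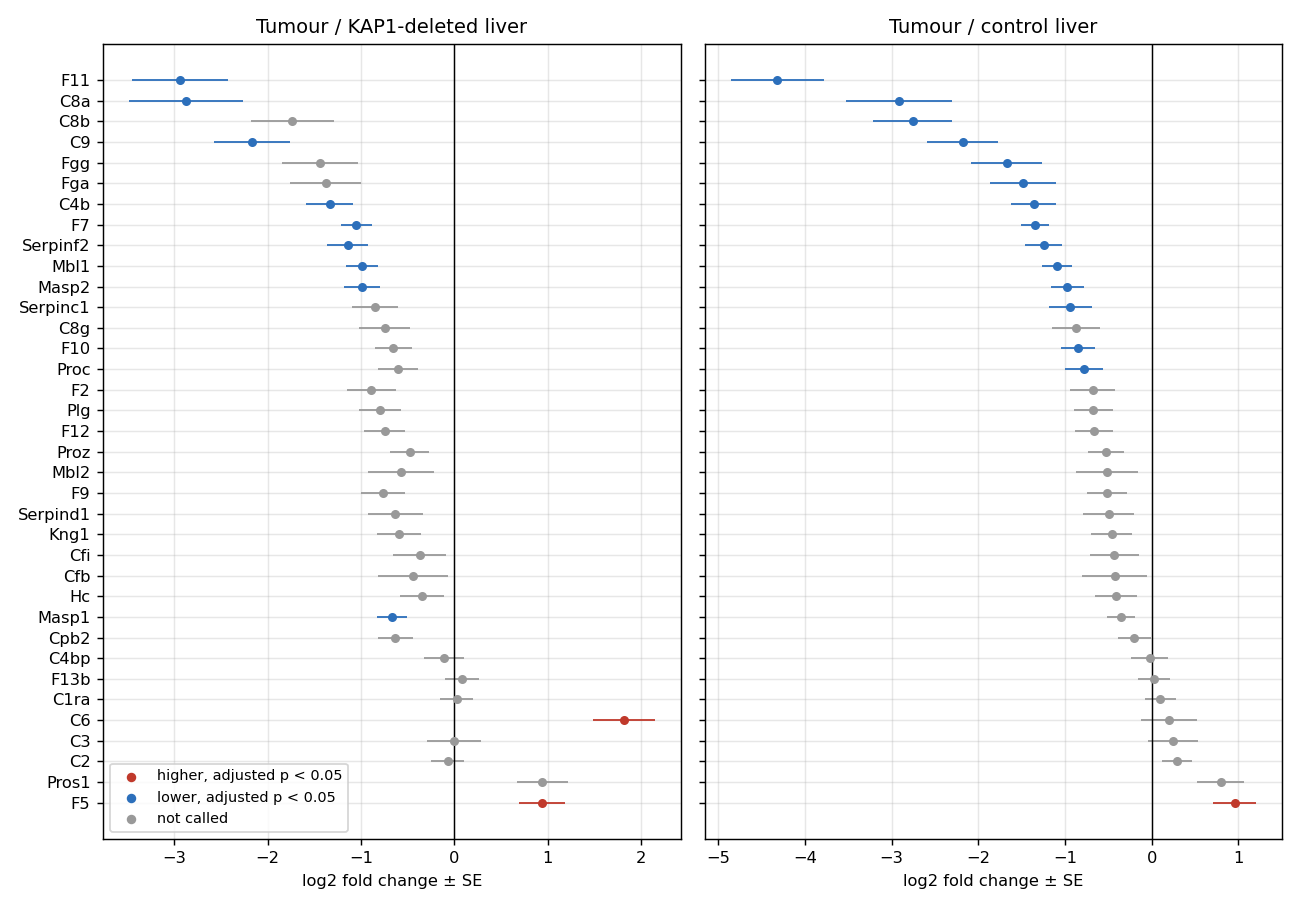
Log2 fold change with its SE for the 36 genes in tumours against KAP1-deleted livers (left) and against control livers (right), ordered by the comparison with control livers; red marks genes called higher, blue genes called lower and grey genes not called at an adjusted p of 0.05. F11, C8a, C8b and C9 have the lowest values in both panels, F5 is red in both, and C6 is red in the left panel alone.

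Fibrinogen genes sit side by side on chromosome 3, with Fgg and Fga 11027 bases apart. Fga, the alpha chain gene, had 506 and 1136 CPM in tumours, 2225 and 2038 CPM in the KAP1-deleted livers, and 2330.3 and 2255 CPM in control livers. Fgg, the gamma chain gene, had 468 and 1116 CPM in tumours, 2277 and 2002 CPM in the KAP1-deleted livers, and 2769 and 2283 CPM in control livers. Tumour 1 was 2.24-fold below tumour 2 for Fga and 2.39-fold below it for Fgg, and both tumours were below all livers for each gene. Against control livers Fga fell 2.79-fold (log2 -1.48 ± 0.38, edgeR adjusted p = 0.0405) and Fgg 3.19-fold (log2 -1.67 ± 0.41, adjusted p = 0.0342). Against KAP1-deleted livers the falls of 2.59-fold and 2.7-fold were not called (adjusted p = 0.056 and 0.0601).

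Without tumour 2 the log2 fold changes against control livers were -2.19 for Fga and -2.44 for Fgg. The Fga call was lost without control liver 1 or 2 (0.0752 and 0.0979), without tumour 1 (0.114) and with library totals alone (0.0619), and the Fgg call without control liver 1 or 2 (0.0829 and 0.0735) and without tumour 1 (0.0938). Fgb, the beta chain gene and not among the 36, had 852 and 1474 CPM in tumours, 3241 and 2437 CPM in the KAP1-deleted livers, and 3677 and 3104 CPM in control livers. Fgb was called lower against control livers (log2 -1.54 ± 0.35, adjusted p = 0.0257), lost without tumour 1 (0.11), and its adjusted p was 0.0503 against KAP1-deleted livers. All chains of fibrinogen thus had both tumours below every liver library.

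Inhibitors of clotting split by gene. Serpinc1, the gene of antithrombin, averaged 578 ± 72.1 CPM in tumours, 1041 ± 141 in the KAP1-deleted livers and 1108 ± 134 in control livers. It was called lower against control livers (log2 -0.94 ± 0.25, edgeR adjusted p = 0.0426) and not against KAP1-deleted livers (adjusted p = 0.064). That call was lost without control liver 2 (0.126), KAP1-deleted liver 1 or 2 (0.0821 and 0.0797) or tumour 1 or 2 (0.178 and 0.098), with only the 4 libraries compared and with library totals alone. Zbtb37 on the opposite strand covers 34.4% of its exon bases and had 15 and 13.2 CPM in tumours, 10.6 and 9.09 CPM in the KAP1-deleted livers, and 11.2 and 6.94 CPM in control livers. Serpind1, the gene of heparin cofactor II, had 194 and 336 CPM in tumours, 382 and 439.9 CPM in the KAP1-deleted livers, and 321 and 426 CPM in control livers, and was not called (adjusted p = 0.203 and 0.306).

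Proc, the gene of protein C, averaged 145 ± 0.602 CPM in tumours, 220.0 ± 37.2 in the KAP1-deleted livers and 248 ± 42.7 in control livers. It was called lower against control livers (log2 -0.78 ± 0.21, edgeR adjusted p = 0.0492), just inside the threshold. The call was lost without control liver 2 (0.167), KAP1-deleted liver 1 or 2 (0.0737 and 0.0708) or tumour 1 or 2 (0.177 and 0.168), with only the 4 libraries compared, with DESeq2 size factors and with library totals alone. Pros1, whose product protein S is the cofactor of protein C, had 228 and 166 CPM in tumours, 108 and 96.9 CPM in the KAP1-deleted livers, and 141 and 86.1 CPM in control livers. Both tumours were above all livers, but Pros1 was not called (log2 0.94 ± 0.27 and 0.80 ± 0.27, adjusted p = 0.0633 and 0.0928), and with library totals alone it was called higher in both tumour comparisons.

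Among the 36 genes, Serpinf2, Plg and Cpb2 belong to fibrin breakdown and its control, and of these Serpinf2 was called in tumours. Serpinf2 encodes alpha 2-antiplasmin, the main inhibitor of plasmin. It had 137 and 185 CPM in tumours, 361 and 351 CPM in the KAP1-deleted livers, and 381 and 384 CPM in control livers. The 3 groups did not overlap. Serpinf2 fell 2.21-fold against KAP1-deleted livers (log2 -1.14 ± 0.22, edgeR adjusted p = 0.0168) and 2.37-fold against control livers (log2 -1.25 ± 0.22, adjusted p = 0.0103). The first call was lost without KAP1-deleted liver 1 or 2 (0.0688 and 0.0729), without tumour 1 (0.0933) and with library totals alone (0.0636), and the second without tumour 1 (0.0631).

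Plg, the gene of plasminogen, averaged 682 ± 54 CPM in tumours, 1179 ± 35.5 in the KAP1-deleted livers and 1087 ± 15.3 in control livers. Both tumours were below all livers, and Plg was not called (edgeR adjusted p = 0.0601 and 0.0867). Cpb2, a carboxypeptidase that protects fibrin from plasmin, had 190.3 and 219.6 CPM in tumours, 317 and 318 CPM in the KAP1-deleted livers, and 248 and 223 CPM in control livers. KAP1-deleted livers were the highest group for Cpb2, without a call in any comparison (adjusted p = 0.0721 for tumours against KAP1-deleted livers, 0.529 for tumours against control livers and 0.934 for KAP1-deleted against control livers).

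Plat, the tissue plasminogen activator that turns plasminogen into plasmin, stood apart among 12 receptors and activators of clotting listed beside the 36 genes. It had 68.3 and 287 CPM in tumours, 0.522 and 0.678 CPM in the KAP1-deleted livers, and 0.491 and 0.968 CPM in control livers. Every liver was under 1 CPM, and tumour 2 was 4.21-fold above tumour 1. The log2 fold change was 8.20 ± 0.96 against KAP1-deleted livers (edgeR adjusted p = 0.00975) and 7.87 ± 0.94 against control livers (adjusted p = 0.00831). Without tumour 1 the values were 8.89 and 8.56, and without tumour 2 they were 6.81 and 6.48. Calls were lost without control liver 1 or 2 (0.064 and 0.0653, then 0.109 and 0.147), without KAP1-deleted liver 1 or 2 (0.173 and 0.212, then 0.0793 and 0.0795), and with only the 4 libraries compared (0.0543 and 0.0571). Of the 12 genes, 1 was called higher (8.33%) and 2 lower (16.7%) against KAP1-deleted livers, where 4.8% and 6.64% of all genes were. Against control livers 1 was called higher and 1 lower (8.33% each), close to the 6.15% and 7.76% of all genes. The lowered genes of that list were F2r, a thrombin receptor, in both tumour comparisons and Thbd, thrombomodulin, against KAP1-deleted livers alone. With library totals alone neither was called (0.0832 and 0.0901 for F2r, 0.101 for Thbd). Both F2r calls were lost without tumour 1 (0.0757 and 0.0791), and that against KAP1-deleted livers also without KAP1-deleted liver 1 or 2 (0.05 and 0.06). Thbd was not called without KAP1-deleted liver 1 or 2 (0.0727 and 0.125) or tumour 1 or 2 (0.165 and 0.0965).

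Other liver genes of the same pathways, listed beside the 36, fell in tumours in part. Of 15 tested further complement genes, 0 were called higher and 6 lower in each tumour comparison, among them C4a, C7, Colec11 and Fcna. The shares of all genes called lower, 6.64% against KAP1-deleted livers and 7.76% against control livers, are the background for this list and the next ones. Fcna, the gene of ficolin A, a recognition protein of the lectin pathway that macrophages make, had 8.77 and 7.66 CPM in tumours, 28.6 and 35.4 CPM in the KAP1-deleted livers, and 38.7 and 31.1 CPM in control livers. It fell 3.9-fold and 4.25-fold (edgeR adjusted p = 0.00221 and 0.00125), and these calls were kept under each alternative run. Of 18 tested further coagulation genes, 0 were called higher in tumours, 4 lower against KAP1-deleted livers (Hrg, Hgfac, Tfpi and Vwf) and 4 lower against control livers (Fgb, Hrg, Hgfac and Vwf). Hrg lost both calls without tumour 1 (0.103 and 0.106), without tumour 2 (0.0668 and 0.0743) and with library totals alone (0.114 and 0.127), and that against KAP1-deleted livers also without KAP1-deleted liver 1 or 2 (0.0878 and 0.126). Hgfac against KAP1-deleted livers was lost without tumour 1 or 2 (0.0579 and 0.05). Tfpi was not called without KAP1-deleted liver 1 or 2 (0.181 and 0.26) or tumour 1 or 2 (0.19 and 0.0748), with DESeq2 size factors (0.0609) or with library totals alone (0.475).

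Vwf, the gene of von Willebrand factor, is itself an endothelial marker. Summed levels of the 8 endothelial markers were 209 and 189 CPM in tumours, 306 and 308 CPM in the KAP1-deleted livers, and 280.3 and 304 CPM in control livers, with all 8 below 0 in both tumour comparisons and 2 called lower. The part of these cells in the Vwf difference was not tested. Both Vwf calls were lost without tumour 1 (0.142 and 0.0866), without tumour 2 (0.173 and 0.108) and with library totals alone (0.37 and 0.125). Against KAP1-deleted livers Vwf was also lost without KAP1-deleted liver 1 or 2 (0.325 and 0.0667), with DESeq2 size factors (0.0603) and with limma-voom (0.0595), and against control livers without control liver 2 (0.0658). The 11 complement receptors and surface regulators gave 0 higher and 1 lower (9.09%) in each comparison, close to the background. The gene was Vsig4, a receptor of liver macrophages whose calls were lost without tumour 1 (0.121 and 0.118), without tumour 2 (0.0509 and 0.0505) and with library totals alone (0.0776 and 0.0738), and against KAP1-deleted livers also without KAP1-deleted liver 1 (0.0808). In addition, 0 of the 3 C1q genes were called. No gene of any of these lists was called in KAP1-deleted against control livers.

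Levels can be compared roughly between genes once divided by exon length, here in CPM per kilobase of exon. In control livers Fgg led with a mean of 1207, followed by C3 at 797 and Fga at 762, and the last pair overlapped between libraries. KAP1-deleted livers had Fgg at 1022 and C3 at 945. In tumours C3 led at 943, ahead of Fgg at 378, Kng1 at 278 and Fga at 273, and these last 3 overlapped between libraries. F5 ranked 6 of 36 in tumours and 24 in both liver groups. C8a ranked 28 in tumours, 12 in the KAP1-deleted livers and 10 in control livers, and Cfb was the lowest of the 36 in every group. Other genes overlap 79.5% of the exon bases of Cfb, where reads can be set aside as ambiguous, so its rank is uncertain. C2, Masp2 and C4b also have exon bases overlapped by, or words shared with, other genes.

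Tumours 1 and 2 differed from each other more than livers of a group did for several genes. Of the 36, 28 were lower in tumour 1 than in tumour 2 (77.8%, against 49.7% of all genes tested). Tumour 1 was over 1.5-fold lower for 8 genes, C8a, F11, C9, Fgg, Fga, Serpind1, C8b and Cfi, and tumour 2 for 0. The summed hepatocyte markers were also lower in tumour 1. Between livers of a group, 2 genes were over 1.5-fold apart in the KAP1-deleted livers and 5 in control livers. Set within each mouse, 29 genes had a lower level in the tumour than in the KAP1-deleted liver in both mice, 4 had a higher level in both, and 3 differed in sign. Both tumours lay below all 4 livers for 24 of the 36 genes (24.7% of all genes tested), and above them for 2, F5 and Pros1 (20.3% of all genes tested).

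**Figure D5:**
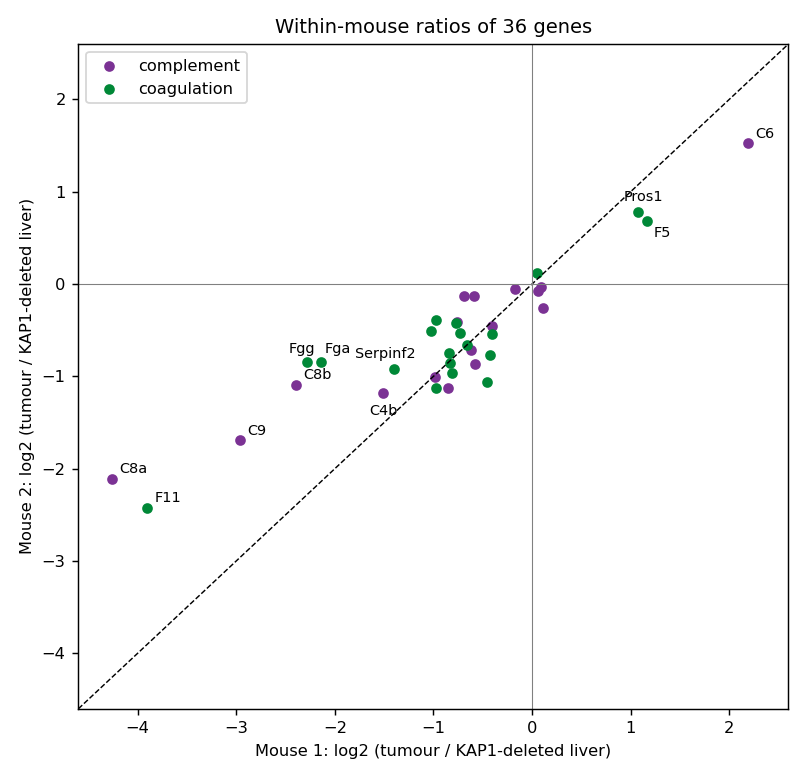
Log2 ratio of tumour to KAP1-deleted liver within mouse 1 (horizontal) and mouse 2 (vertical) for the 36 genes, coloured by system; the dashed line marks equal ratios. C8a, F11, C9, C8b, Fgg and Fga lie above the line, with lower ratios in mouse 1 than in mouse 2, and C6, Pros1 and F5 are the labelled genes above 0 in both mice.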

How the data were processed

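The 6 samples are labelled as liver or tumour tissue, although the protocol in the labels describes extraction from cell lines. The authors deposited 1 table per library, giving raw read counts for each Ensembl gene, made with TopHat and HTSeq 0.6.1 on mm9, per the submitters' processing notes. No source used here gives the annotation, the strand setting or any read filter. Entries naming no gene were left out of totals and tests, and their share in each group is given with the depths.

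The test was edgeR 4.0.16 (R 4.3.3): filterByExpr by group (minimum count 10, minimum total 15), TMM, 1 mean per group over all 6 libraries and a robust quasi-likelihood fit with 3 residual degrees of freedom (common biological coefficient of variation 0.230). The threshold was a two-sided p of 0.05 after Benjamini-Hochberg adjustment across 17558 genes. The script was tested on simulated data. No label says how libraries of a group were sampled beyond the mouse codes, by which the 2 libraries of a group come from different mice. Each p-value sets a group difference against a spread estimated over the 3 groups, with information shared across genes. The main fit did not use the pairing of tumours and KAP1-deleted livers by mouse. An exact permutation test of 2 against 2 cannot go below 0.333.

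The code of the mouse in the titles pairs each tumour with a KAP1-deleted liver; their deviations from group means correlated with r = 0.185. A fit with mouse as a block, another by replicate number, other scalings, no filter, DESeq2 1.42.0, limma-voom (limma 3.58.1), only the 4 libraries compared and each library left out in turn were alternatives. Where a library was left out, the lone one of its group was assumed to vary like the others. Libraries of a group differed by far more than counting noise, with a chi-square of 90.8 to 352 for each degree of freedom.

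Exon lengths, places and shared 31-base words come from GENCODE M21 on GRCm38, not mm9, and symbols matched 16523 of the genes tested. Promoters come from RefSeq, GRCm38.p6. All 36 genes with counts are reported. Per-library values are given for called genes, at most the 12 with the smallest adjusted p per comparison, and of other lists up to 4 called genes; some further genes that bear on a result were named after their values were seen. Members and lists were chosen with earlier results of these data known. Some genes of the other lists are counted but not reported by name here.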

Additional observations from a re-analysis of the deposited data

How the results depend on the processing

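In KAP1-deleted against control livers, genes called lower numbered 0, and 3 with no filter on low counts, 1 with DESeq2 and 0 to 1 with a library left out. In tumours against KAP1-deleted livers, the 2 called higher became 4 with library totals alone and 0 to 3 with a library left out. The 9 called lower there became 3 with library totals alone, 18 with no filter, 20 with DESeq2, 14 with limma-voom, 16 with the replicate block by number, 17 with the replicate block by mouse and 0 to 13 with a library left out. In tumours against control livers, the 1 called higher became 3 with library totals alone, 2 with no filter, with DESeq2 and with the replicate block by number, 0 with only the 4 libraries compared and 0 to 1 with a library left out. The 14 called lower became 9 with library totals alone and 4 to 12 with a library left out. Of all genes, 8.28% were called lower against KAP1-deleted livers with no filter, 9.03% with DESeq2, 6.91% with limma-voom and 9.89% with the block by number. Against control livers, 6.61%, 8.3% and 8.16% were called higher with no filter, DESeq2 and that block, and 5.26% with only the 4 libraries compared. The cause of the shifts in the counts of the 36 genes was not tested, beyond the fewer libraries of the left-out and 4-library fits.

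None of the 11 calls against KAP1-deleted livers and 1 of the 15 against control livers held in all 6 fits that left out a library. No called value changed sign under any alternative run. Over all genes, calls higher and lower in KAP1-deleted against control livers were 42 and 17, and 354 and 217 with no filter, 152 and 78 with DESeq2, 16 and 11 with limma-voom, 70 and 27 with the replicate block by number and 13 and 7 with only the 4 libraries compared. In tumours against KAP1-deleted livers they were 842 and 1165, and 1563 and 2256 with no filter, 1571 and 2318 with the replicate block by mouse and 4317 and 520 with library totals alone. In tumours against control livers they were 1080 and 1363, and 1801 and 2314 with no filter and 3962 and 626 with library totals alone. With a library left out, calls over all genes ranged from 20 to 64 higher and 8 to 20 lower in KAP1-deleted against control livers, from 295 to 1093 and 265 to 1684 in tumours against KAP1-deleted livers, and from 663 to 998 and 440 to 1623 in tumours against control livers. Same-numbered samples deviated with r = 0.386 for KAP1-deleted and control livers, which share a number and no mouse.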
